A study of Mus musculus with 12 samples.

Results

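Bone marrow-derived mast cells (BMMCs) labelled *Elk4* knockout (KO) were compared with BMMCs labelled heterozygous (HZ), both after 1 h of antigen. The comparison uses 4 of the 12 RNA-seq libraries of the series, 2 labelled KO and 2 labelled HZ, chosen by genotype and treatment labels alone. The mice were from a conventional knockout line on a C57BL/6N background, of both sexes and 6 to 12 weeks old, and in such mice the lesion is present in all tissues and throughout growth of the culture. Marrow was grown in IL-3 and SCF until the KIT and FcϵRI double-positive share was above 80%. For all 4 libraries the cells were sensitised overnight with anti-DNP IgE (0.5 µg/ml), and DNP-HSA at 100 ng/ml was the antigen. The sources used here do not say whether the replicates of a group were separate mice, cultures or wells. The p-values therefore measure only the spread between libraries of the same group, which was estimated over all 6 groups of the series together. The 4 unstimulated HZ and KO libraries and the 2 stimulated wild-type (WT) libraries served to place the differences. No IgE dose is given for the unstimulated libraries in the sources used here. Where stimulated and unstimulated libraries are compared, effects of IgE and of antigen therefore cannot be told apart.

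FcϵRI is the high-affinity IgE receptor of mast cells. Antigen that bridges receptor-bound IgE starts SYK and LYN signalling, calcium entry, MAP kinase activity and degranulation, and within minutes the transcription of immediate early genes, cytokines and chemokines. ELK4 is a ternary complex factor (TCF), an ETS protein that binds beside serum response factor (SRF) at CArG boxes and is phosphorylated by MAP kinases. TCF and SRF targets include the *Egr* and *Fos* genes, and TCFs are also known for a role in cell proliferation.

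*Elk4* was read in every library. It had 2139 and 1883 counts in the stimulated HZ libraries and 1867 and 1971 in the KO libraries, against 2322 and 1995 in stimulated WT. Scaled to library size, these were 65.2 and 63.7 CPM in HZ and 67.1 and 68.5 in KO, so both KO libraries lay slightly above HZ, and the log2 fold change (KO over HZ) was 0.07 ± 0.06 (SE; edgeR's quasi-likelihood test gave an adjusted p = 0.441). Without antigen *Elk4* was lower in KO, at 93.2 and 86.0 CPM in HZ and 69.7 and 63.5 in KO (log2 -0.43, adjusted p = 3.61e-08), below the fold threshold. Its log2 response to antigen was larger in KO by 0.50 (adjusted p = 3.32e-06). Counts were summed over the whole gene, and the deleted part is not given in the sources used here, so these reads do not check the genotype. KO and HZ below are therefore the names on the libraries. The other TCF genes did not differ past the test either, with *Elk1* at -0.03 and *Elk3* at 0.16 on the log2 scale.

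The 4 libraries held 30846198 to 35531667 counts on genes. At a mean above 1000 counts, the median standard error of a log2 fold change was 0.053. Of 11 mast cell markers tested, among them *Kit*, *Fcer1a*, *Ms4a2*, *Cpa3* and *Tpsb2*, 0 passed the test with the fold threshold given below. At an adjusted p below 0.05 without that threshold, 5 were higher in KO, 2 lower and 4 neither. All 11 summed to 55300 to 56000 CPM (counts scaled to a common library size) in HZ and 57500 to 58000 in KO. The summed level of 15 macrophage markers was 96.5 to 96.9 CPM in HZ and 122 to 133 in KO. Of that sum, *F13a1* alone made up 24.6 CPM in HZ and 58.0 in KO. *Mrc1*, *C1qa*, *C1qb* and *Marco* of the list had at most 3 counts in each of the 4 libraries. Other members were read, with 1859 and 1604 counts of *Cd68* in HZ and 1404 and 1545 in KO. *Adgre1* had 208 and 194 counts in HZ and 127 and 209 in KO, and *Lyz2* 235 and 209 against 225 and 249. Neutrophil markers summed to 0.541 to 0.67 CPM in HZ and 0.216 to 0.417 in KO, B cell markers to 0.122 to 0.237 and 0.313 to 0.467, T and NK cell markers to 0.338 to 0.518 and 0.323 to 0.451, and dendritic cell markers to 1.46 to 1.66 and 0.934 to 1.39. Eosinophil, erythroid and stromal markers summed to at most 4.19 CPM in each of the 4 libraries. The megakaryocyte markers summed to 2000 to 2020 CPM in HZ and 2290 in KO, mostly from *Itga2b* and *Vwf*. *Itga2b* had 49589 and 45383 counts in HZ and 49142 and 50845 in KO, while *Pf4*, *Gp9*, *Gp1bb* and *Gp6* had at most 19 in each library. The basophil list shares genes with mast cells and summed to 21900 to 22200 CPM in HZ and 22500 to 22700 in KO. The part of other cells in the results was not tested. In bulk RNA, fewer cells of a type and less RNA per cell cannot be told apart.

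Among 12208 genes tested, 649 (5.32%) were called, which required an adjusted p below 0.05 and a ratio of KO to HZ of 1.5 or more, or 0.66 or less. In KO, 428 genes were lower than in HZ (3.51% of those tested) and 221 were higher (1.81%). The genes that were lower differed by a median of 1.87-fold and those that were higher by 1.82-fold, and 167 and 89 of them reached 2-fold. Without the fold threshold 1469 genes (12%) were lower and 1571 (12.9%) higher, so the excess of lower genes belonged to the larger differences. The leading group among the lower genes was the cell cycle. No gene list written for this work held more than 3 of the higher genes. The list counts below are to be read beside these shares over all genes, at which a short list holds few calls.

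**Figure D1:**
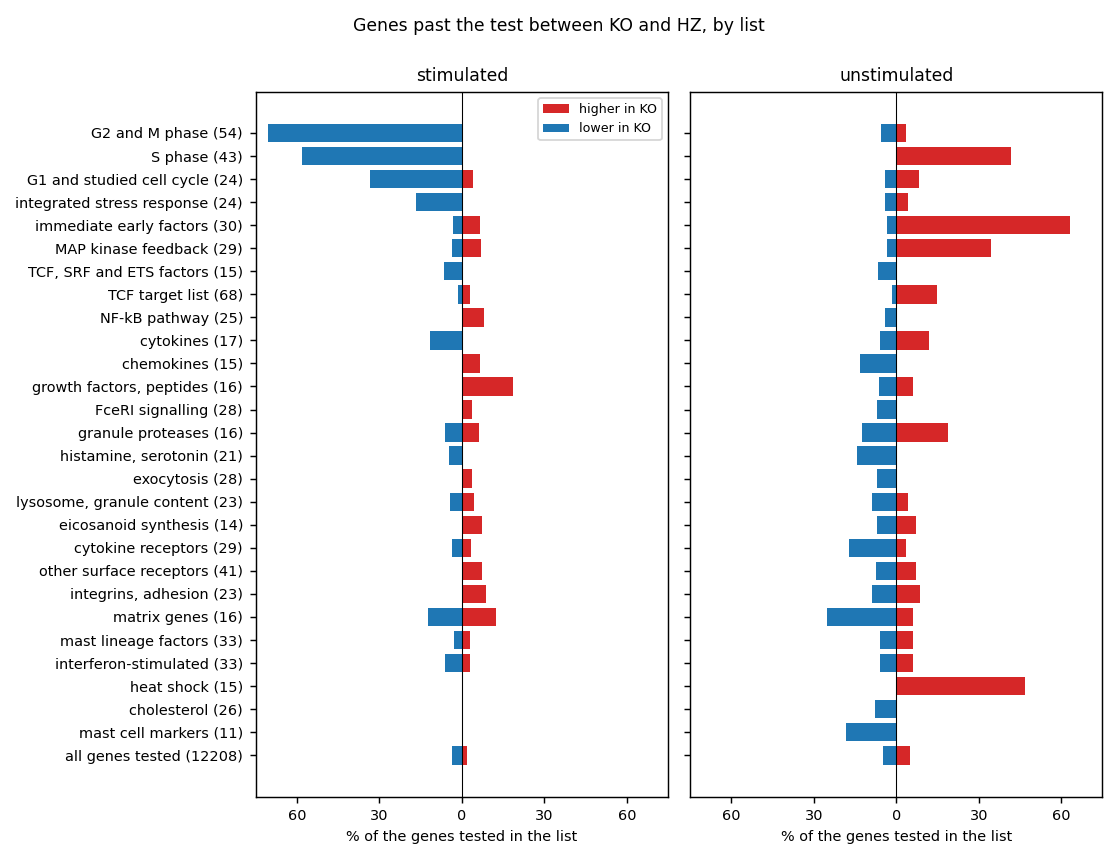
Share of the tested genes of each list that passed the test between KO and HZ, with the number tested in brackets, in stimulated cells (left) and unstimulated cells (right). Red bars to the right are genes higher in KO and blue bars to the left genes lower in KO, and the lowest bar gives all 12208 genes. The cell cycle lists stand out to the left with antigen, while without antigen the S phase, immediate early and heat shock lists stand out to the right.

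G2 and M phase genes, which build the spindle, the kinetochore and the mitotic kinases, were lower in KO than in HZ after antigen. Of 54 listed genes, all tested, 38 (70.4%) were lower and 0 higher, and the log2 differences of the list ran from -1.51 to -0.0891. The median was -0.95 beside -0.00216 over all genes, and all 54 differences were negative. *Ube2c*, the ubiquitin-conjugating enzyme of the anaphase-promoting complex, had 571 and 644 counts in HZ and 213 and 175 in KO. By edgeR's quasi-likelihood test *Ube2c* was 2.85-fold lower in KO (log2 -1.51 ± 0.12, adjusted p = 1.22e-14).

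Motor, kinetochore and checkpoint genes followed. *Pimreg*, a mitotic regulator, had 537 and 485 counts in HZ and 158 and 185 in KO, a log2 difference of -1.44 ± 0.13. *Cenpf*, a kinetochore protein, had 821 and 612 counts in HZ and 260 and 239 in KO, which is a 2.6-fold difference. *Bub1*, a spindle checkpoint kinase, had 874 and 749 counts in HZ and 293 and 289 in KO. In *Kif23*, the central spindle motor of cytokinesis, counts of 803 and 855 in HZ stood against 316 and 297 in KO. These 4 genes were named because, with *Ube2c*, they had the largest called differences of the list. Their adjusted p-values from the quasi-likelihood test lay between 1.01e-12 for *Pimreg* and 4.11e-15 for *Kif23*.

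S phase genes, which replicate DNA and supply nucleotides, were lower as well but by less. Of 43 listed and tested genes, 25 (58.1%) were lower and 0 higher, with a median log2 difference of -0.62. At the 2-fold threshold 2 remained, where 21 of the G2 and M phase genes did. *Rrm2*, the regulated subunit of ribonucleotide reductase, had 5286 and 4789 counts in HZ and 2078 and 2085 in KO (log2 -1.13 ± 0.05, adjusted p = 2.61e-24). *Rad51ap1*, a DNA repair protein, had 819 and 605 counts in HZ and 276 and 346 in KO. The log2 difference was -0.97 for *Dscc1*, a subunit of an alternative clamp loader, -0.96 for *Clspn*, an adaptor of the replication checkpoint, and -0.93 for *E2f8*, a repressive E2F factor. *Mcm2*, a subunit of the replicative helicase that is not in the list and was named for its abundance, had 8645 and 7746 counts in HZ and 4611 and 4834 in KO, 1.57-fold lower. KEGG's DNA replication pathway, as annotated in the deposited table, had 11 of 35 genes lower and 0 higher, and its cell cycle pathway 26 of 116 lower and 2 higher.

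A list of G1 cyclins, kinases, inhibitors and E2F factors also holds *Ccna2* and *Ccnb2*, cyclins of S phase and mitosis that the study examined. Of its 24 genes tested, 8 were lower (33.3%) and 1 higher, and 18 of the 24 differences were negative. *E2f2*, an activating E2F factor, had 457 and 405 counts in HZ and 180 and 154 in KO (log2 -1.23 ± 0.14). *Ccna2*, cyclin A2, had 2094 and 1849 counts in HZ and 769 and 813 in KO (log2 -1.18 ± 0.06), and *Ccnb2*, cyclin B2, 555 and 470 in HZ and 220 and 230 in KO (log2 -1.05 ± 0.11). The log2 difference was -0.90 for *Ccne2*, cyclin E2, and -1.01 for *Cdkn2c*, an inhibitor of the G1 kinases. The kinases themselves differed less. *Cdk2* had a log2 difference of -0.37 and *Cdk6* of -0.15, both below the fold threshold.

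**Figure D2:**
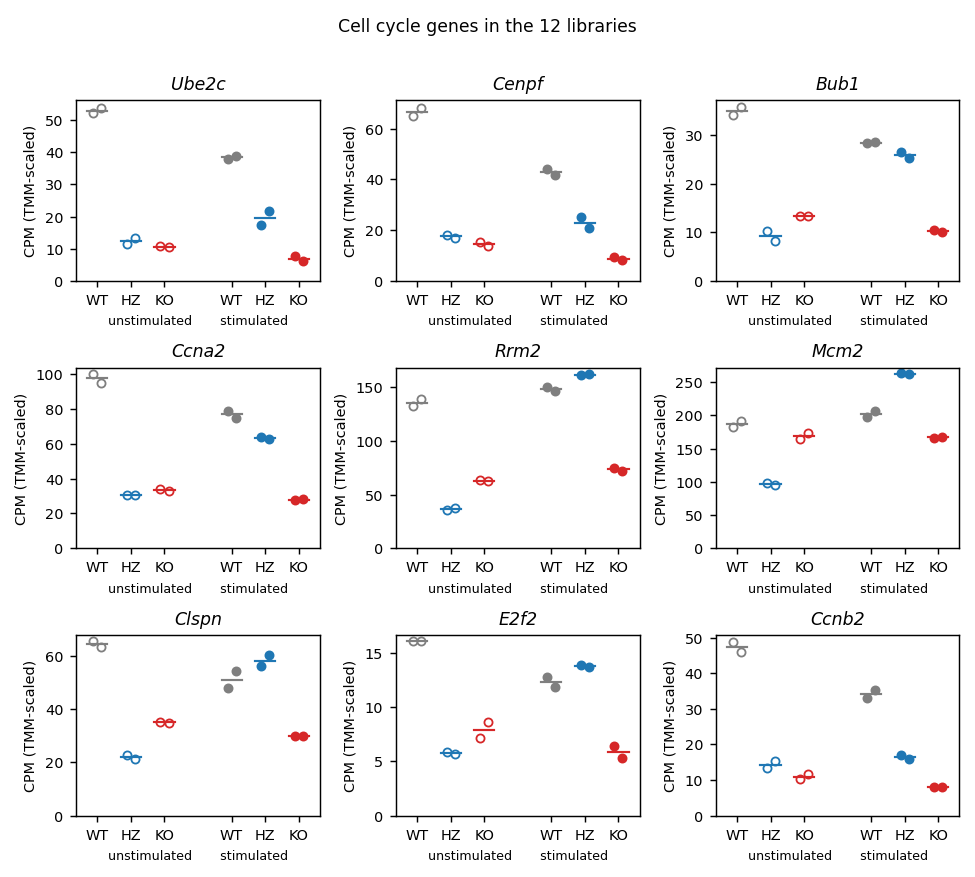
TMM-scaled CPM of 9 cell cycle genes in every library, by genotype, unstimulated (open circles) and stimulated (filled circles), with a line at each mean of 2 libraries. After antigen the KO mean lies below the HZ mean in each panel. In unstimulated cells KO lies above HZ for *Bub1*, *Rrm2*, *Mcm2*, *Clspn* and *E2f2* and slightly above it for *Ccna2*. It lies below HZ, by less than after antigen, for *Ube2c*, *Cenpf* and *Ccnb2*.

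The lower level of the cell cycle lists as a whole was not found in unstimulated cells. Without antigen, the S phase list had 18 genes higher and 0 lower in KO, against a background of 4.83% of all genes higher and 4.77% lower, and the G2 and M phase list had 2 higher and 3 lower. *Rrm2* had 1241 and 1240 counts in unstimulated HZ and 2387 and 2219 in unstimulated KO, so that KO was 1.72-fold higher there and 2.2-fold lower after antigen. The response of HZ and KO to antigen was compared as an interaction in the same model. There 37 of 43 S phase genes and 40 of 54 G2 and M phase genes had a smaller log2 response in KO, and over all genes 8.26% had a smaller and 6.8% a larger response. For *Rrm2* the log2 response to antigen was 2.14 in HZ, 0.22 in KO and 0.13 in WT, and for *Mcm2* it was 1.44 in HZ, -0.02 in KO and 0.11 in WT. For both genes the KO value lay near that of WT, and HZ stood apart. In the stimulated WT libraries *Rrm2* had 4457 and 4366 counts and *Mcm2* 5868 and 6138, which lay near HZ for *Rrm2* and between HZ and KO for *Mcm2*. For *Ube2c*, stimulated WT had 1127 and 1155 counts, above HZ.

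**Figure D3:**
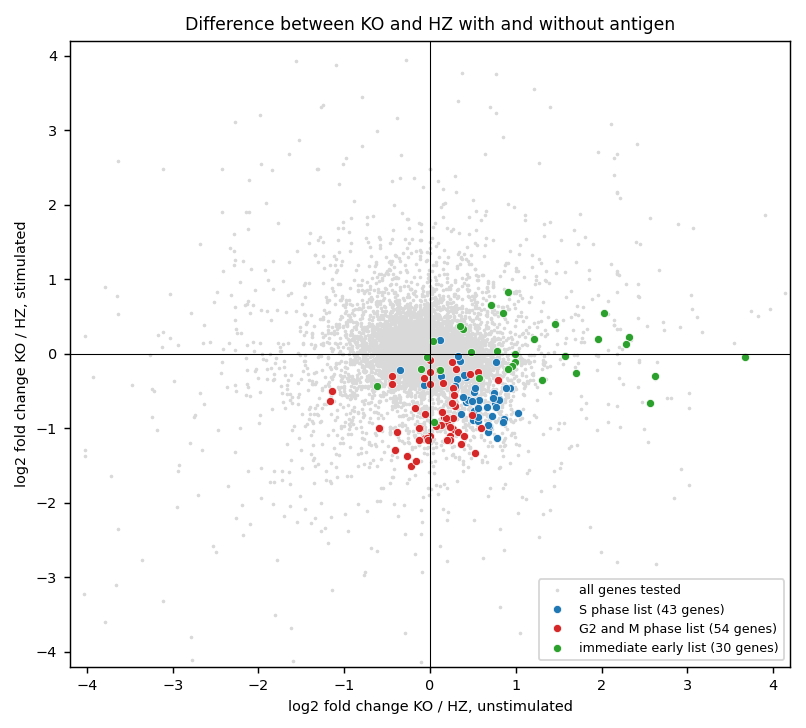
Log2 fold change of KO over HZ in stimulated cells (vertical) against that in unstimulated cells (horizontal), for all genes tested (grey) and 3 lists in colour. The 2 axes use different libraries, 32 genes lie beyond the limit of 4.2, most S phase genes sit in the lower right and most G2 and M phase genes near the lower middle, and most immediate early genes spread to the right within 1 of 0 on the vertical axis.

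The promoters of the G2 and M phase genes share letters that the choice of genes did not use. The cell cycle genes homology region (letters TTTGAA, both strands searched) is bound by MuvB complexes, and CCAAT is bound by NF-Y. These motifs, and the E2F letters TTTNGCGC, were chosen after the data had been seen, and none of them contains another. Windows of 300 bases from RefSeq (build GRCm38.p6, from 250 bases before the start to 50 after it, first window listed per gene) were matched by NCBI Gene number for 9828 of the 12208 genes (80.5%). Of the 38 lower G2 and M phase genes 32 had a window, and 23 of these (71.9%) held TTTGAA beside 12.2% of all windows. CCAAT was in 25 of the 32 (78.1%) beside 39.2% of all windows. Of the 16 listed genes that were not called 15 had a window, and 9 of these held TTTGAA and 11 CCAAT. The E2F letters were in 2 of the 32 windows (6.25%) beside 2.54% of all. Over the 343 windows of all lower genes TTTGAA was in 92 (26.8%) and CCAAT in 188 (54.8%), and over the 288 windows of lower genes outside the cell cycle lists TTTGAA was in 66 (22.9%). Windows of *Ube2c* (chr2:164769679-164769978, plus strand), *Cenpf* (chr1:189688037-189688336, minus strand) and *Kif23* (chr9:61946750-61947049, minus strand) are shown because they are the 3 lower genes of the list with the largest fold that hold TTTGAA. Capitals mark TTTGAA and CCAAT, or their reverse complements TTCAAA and ATTGG, and each sequence reads 5′ to 3′ on the gene's strand.
Ube2c: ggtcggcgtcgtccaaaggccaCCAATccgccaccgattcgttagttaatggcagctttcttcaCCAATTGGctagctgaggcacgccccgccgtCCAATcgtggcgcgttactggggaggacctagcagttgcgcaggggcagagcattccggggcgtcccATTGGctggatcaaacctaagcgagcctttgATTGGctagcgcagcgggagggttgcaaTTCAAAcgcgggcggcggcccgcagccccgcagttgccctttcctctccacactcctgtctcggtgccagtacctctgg
Cenpf: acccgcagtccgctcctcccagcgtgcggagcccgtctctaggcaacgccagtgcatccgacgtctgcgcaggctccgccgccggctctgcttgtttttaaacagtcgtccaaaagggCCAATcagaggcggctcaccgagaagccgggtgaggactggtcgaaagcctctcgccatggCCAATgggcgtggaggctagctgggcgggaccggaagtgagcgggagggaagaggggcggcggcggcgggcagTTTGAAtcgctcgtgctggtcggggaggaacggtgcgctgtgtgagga
Kif23: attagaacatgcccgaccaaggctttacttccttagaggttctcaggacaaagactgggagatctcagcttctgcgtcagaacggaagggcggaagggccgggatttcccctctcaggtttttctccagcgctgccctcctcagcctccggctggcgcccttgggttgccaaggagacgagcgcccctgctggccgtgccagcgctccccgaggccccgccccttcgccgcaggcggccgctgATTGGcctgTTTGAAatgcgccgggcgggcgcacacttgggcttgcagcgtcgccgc

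Motifs of ELK4, SRF and other antigen-responsive factors were searched on both strands of the same windows. A CArG box was in 3 of the 343 windows of lower genes (0.875%) beside 1.26% of all windows, and the ETS letters CCGGAAGT in 31 (9.04%) beside 8.65%. The letters TGANTCA of AP-1 were in 4.96% beside 4.83% and the E-box CACGTG in 7.0% beside 10.1%. Windows covered 76.5% of the 221 genes higher in KO and 72.0% of S phase genes lower in KO, beside 80.5% of all. Because of this coverage no conclusion is drawn for either set. The first set's 169 windows held TGANTCA in 8.88%, a CArG box in 2.37%, CCGGAAGT in 5.33% and CACGTG in 7.1%. These were 15, 4, 9 and 12 windows. In the second set's 18 windows CArG was in 1, CCGGAAGT in 2, TGANTCA in 0 and CACGTG in 1. The E2F letters were in 5 of the 18 (27.8%) beside 2.54% of all windows. TTTGAA was in 3 and CCAAT in 13. No match says only that these letters are not in this window.

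Of 30 immediate early transcription factors tested, 2 were higher (6.67%) and 1 lower (3.33%) in KO after antigen, beside 1.81% and 3.51% of all genes. The median log2 difference was -0.02, and without the fold threshold 11 were higher and 10 lower. *Atf3*, a stress-inducible factor, had 50301 and 45757 counts in HZ and 41481 and 42936 in KO, a log2 difference of -0.05 ± 0.03 (adjusted p = 0.301). *Nr4a2*, an orphan nuclear receptor, was higher in KO, with 26966 and 24978 counts in HZ and 36505 and 37886 in KO (log2 0.66 ± 0.03). *Klf10*, a Kruppel-like factor, had 619 and 579 counts in HZ and 930 and 1001 in KO (log2 0.83 ± 0.07). *Egr4*, a member of the early growth response family, was lower, with 2185 and 1977 counts in HZ and 1253 and 1132 in KO (log2 -0.66 ± 0.07). Without KO replicate 2 its log2 difference was -0.57 and no longer past the threshold.

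Without antigen the same list had 19 genes higher in KO and 1 lower, beside 4.83% and 4.77% of all genes. A smaller log2 response in KO was called for 17 of 30, beside 8.26% of all genes. *Atf3* started from 114 and 93 counts in unstimulated HZ and from 1394 and 1451 in unstimulated KO, a 12.7-fold higher level. Unstimulated WT had 1045 and 955 counts, near KO, and the log2 response of *Atf3* was 5.18 in WT, 5.26 in KO and 8.98 in HZ. Of a list of 75 TCF target genes, 68 were tested. In unstimulated KO 10 were higher and 1 lower, beside 4.83% and 4.77% of all genes. In stimulated KO 2 were higher (2.94%) and 1 lower (1.47%), beside 1.81% and 3.51% of all genes. The 2 were *Arl5b*, a small GTPase, with 16847 and 14678 counts in HZ and 22362 and 22988 in KO, and *Homer1*, a scaffold protein, with 646 and 584 against 830 and 855. *Pnma1* was lower at log2 -0.89 and lost its call without KO replicate 2 (-0.68) or HZ replicate 1 (-0.79). SRF targets of the cytoskeleton had 0 of 22 called, beside 5.32% of all genes. Among SRF and ETS factors, *Ets1* was lower with 420 and 400 counts in HZ and 221 and 252 in KO (log2 -0.66 ± 0.13), at -0.59 and below the threshold without KO replicate 1.

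Feedback regulators of MAP kinase and G protein signalling had 2 higher and 1 lower of 29 tested. *Spry1*, a sprouty inhibitor of receptor tyrosine kinase signalling, had 485 and 432 counts in HZ and 938 and 874 in KO, 2.18-fold higher (log2 1.12 ± 0.13, adjusted p = 1.47e-09). *Zc3h12c*, a regnase-family protein, was higher by 0.64 on the log2 scale, and *Rgs16*, a GTPase activator for G proteins, was lower with 1522 and 1232 counts in HZ and 695 and 713 in KO. In the NF-κB pathway 2 of 25 were higher and 0 lower, beside 1.81% and 3.51% of all genes, and the median log2 difference was 0.21. At an adjusted p below 0.05 without the fold threshold, 13 of the 25 were higher and 1 lower. Over all genes these shares were 12.9% and 12%. *Tnfaip3*, the ubiquitin-editing inhibitor A20, had 4189 and 3719 counts in HZ and 6959 and 7125 in KO (log2 0.97 ± 0.05). *Relb*, a subunit of non-canonical NF-κB, had 566 and 609 in HZ and 914 and 830 in KO (log2 0.71 ± 0.11), and without HZ replicate 1 its value of 0.58 was just below the threshold. Unstimulated levels of both differed little, with log2 -0.01 for *Tnfaip3* and 0.06 for *Relb*.

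The study measured the mediators *Hdc*, *Tnf*, *Ccl3*, *Ccl4* and *Il6*, and listed primers for *Il13*. Of all these, 0 passed the fold threshold between stimulated KO and HZ, though 4 passed an adjusted p below 0.05. *Hdc*, histidine decarboxylase, which makes histamine, had 14428 and 12765 counts in HZ and 8779 and 8360 in KO. By the quasi-likelihood test its log2 difference was -0.52 ± 0.04 (adjusted p = 3.26e-16), 1.44-fold lower. *Tnf* had 139751 and 132016 counts in HZ and 93566 and 98800 in KO, log2 -0.36 ± 0.03. *Ccl3* and *Ccl4*, chemokines for monocytes and T cells, were at log2 -0.26 and -0.23. *Il6* stood at log2 0.00 ± 0.03 (45189 and 40559 counts in HZ, 37871 and 40115 in KO), and *Il13* at -0.01 ± 0.03.

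Without antigen the difference in *Hdc* was larger. It had 3969 and 3438 counts in unstimulated HZ and 635 and 606 in KO, a log2 difference of -2.68, so its log2 response to antigen was larger in KO by 2.16 (adjusted p = 1.21e-30). In stimulated WT, *Hdc* had 33145 and 32947 counts, above both groups. *Tnf* in stimulated WT, with 128432 and 132579 counts, was near HZ. Of the other genes the study examined, *Cadm1*, an adhesion molecule, was at log2 -0.44, *Vcl*, vinculin, at 0.27 and *Sirt6*, a deacetylase, at -0.20, all below the fold threshold.

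**Figure D4:**
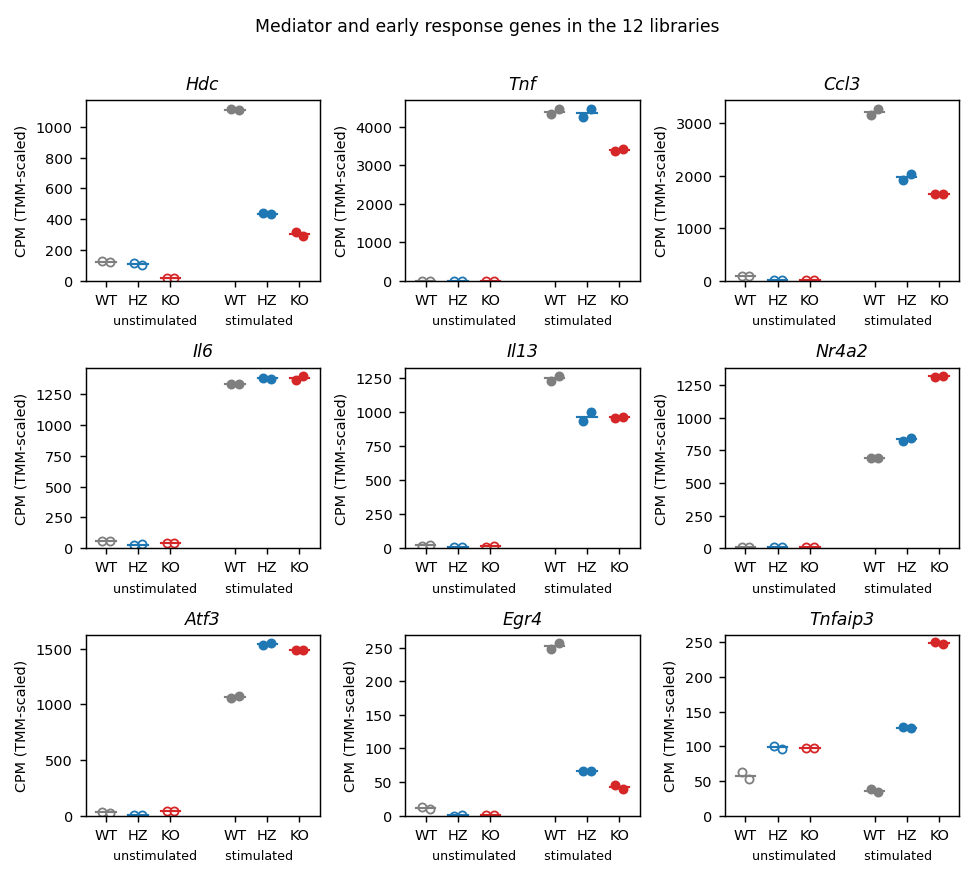
TMM-scaled CPM of 9 mediator and early response genes in every library, drawn as in the plot of cell cycle genes. Stimulated KO lies below HZ for *Hdc*, *Tnf*, *Ccl3* and *Egr4*, close to it for *Il6*, *Il13* and *Atf3*, and above it for *Nr4a2* and *Tnfaip3*.

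Of 17 cytokine genes tested 2 were lower and 0 higher. *Il1a*, an alarmin of the IL-1 family, had 80 and 63 counts in HZ and 13 and 23 in KO, 3.59-fold lower (log2 -1.84 ± 0.39, adjusted p = 0.000196). *Il3*, a growth factor for mast cells that was also in the medium as protein, had 222 and 276 counts in HZ and 98 and 157 in KO, log2 -0.84 ± 0.25 (adjusted p = 0.00919). Its call was lost without KO replicate 1 (-0.56) or HZ replicate 2 (-0.59). Of 16 growth factors and peptides 3 were higher and 0 lower, and 7 of the 16 differences were negative. *Hgf*, hepatocyte growth factor, had 369 and 260 counts in HZ and 782 and 711 in KO, 2.63-fold higher. *Calca*, which encodes calcitonin and CGRP, had 4921 and 4425 counts in HZ and 6394 and 6846 in KO. *Adcyap1*, the peptide PACAP, was at 37 and 38 counts against 74 and 96 (adjusted p = 0.0452), a call that leaving out any of the 4 libraries removed. Of 15 chemokines *Cxcl16* alone was called, higher with 20 and 32 counts in HZ and 38 and 68 in KO, and without KO replicate 2 (log2 0.70) or HZ replicate 1 (log2 0.78) it did not pass.

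The IgE receptor pathway had 1 of 28 genes called, higher in KO. At an adjusted p below 0.05 without the fold threshold, 13 of its genes were higher and 1 lower, beside 12.9% and 12% of all genes. With the fold threshold, granule proteases and lysosomal genes had 1 higher and 1 lower each, exocytosis and eicosanoid genes 1 higher each. Histamine and serotonin genes had 1 lower. *Ctsg*, the protease cathepsin G, had 1717 and 1597 counts in HZ and 717 and 649 in KO (log2 -1.14 ± 0.06) and differed by a like amount without antigen (-1.03). *Mcpt2*, a mast cell protease whose reads may be shared with its close relatives, was higher by 0.60 on the log2 scale, and below the threshold without HZ replicate 1 (0.56). *Ddc*, aromatic amino acid decarboxylase of the serotonin pathway, had 2311 and 2276 counts in HZ and 969 and 934 in KO, log2 -1.13 with antigen and -1.02 without. *Syngr1*, a synaptic vesicle protein, had 617 and 636 counts in HZ and 1410 and 1394 in KO (log2 1.30 ± 0.08). *Galc*, the lysosomal galactocerebrosidase, was higher and *Arsb*, arylsulfatase B, lower (118 and 116 counts in HZ, 39 and 55 in KO), while *Ptgs1*, cyclooxygenase 1, had 4243 and 3991 counts in HZ and 6338 and 6485 in KO.

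Of 41 inhibitory and accessory surface genes 3 were higher and 0 lower. At an adjusted p below 0.05 without the fold threshold, 19 of the 41 were higher and 2 lower, beside 12.9% and 12% of all genes. Of 23 integrin and adhesion genes 2 were higher and 0 lower, and of 29 cytokine receptors 1 was higher and 1 lower. *Gpr65*, a proton-sensing receptor, had 115 and 76 counts in HZ and 305 and 321 in KO, 3.63-fold higher, and *Galc*, its neighbour on chromosome 12, had 179 and 152 in HZ and 521 and 481 in KO, 3.34-fold higher. Stimulated WT held 3 and 6 counts of *Gpr65* and 7 and 10 of *Galc*, so HZ lay between WT and KO for both. *Mrgprb1*, a mast cell G protein-coupled receptor, had 552 and 451 counts in HZ and 935 and 968 in KO, and *Ccrl2*, a chemerin-binding receptor, 1104 and 936 against 1578 and 1752. The integrin chains *Itgb3* (1397 and 1140 in HZ, 2132 and 2340 in KO) and *Itgb2* (579 and 461 against 775 and 760) were higher too. Of cytokine receptors, *Il9r*, the receptor for the mast cell growth factor IL-9, was lower, with 984 and 733 counts in HZ and 256 and 321 in KO (log2 -1.43 ± 0.09, adjusted p = 5.12e-17). *Il2ra*, the IL-2 receptor α chain, was higher by 0.62 on the log2 scale, and at 0.49 and not called without HZ replicate 2.

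Matrix genes split 2 higher and 2 lower of 16. *Plaur*, the urokinase receptor, had 1225 and 1093 counts in HZ and 2205 in each KO library, and *Timp3*, an inhibitor of metalloproteinases, was higher by 0.66 on the log2 scale. *Adamts1*, a secreted metalloproteinase, was lower with 4379 and 3972 counts in HZ and 2248 and 1983 in KO. *Timp2*, another such inhibitor, had 19 and 23 counts in HZ and 1 in each KO library. Its ratio of KO to HZ was 0.0525, with an exact counting interval of 0.00616 to 0.202 at 95% confidence that covers counting error only.

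The largest differences were mostly of genes with few counts. Among the 12 lower genes named by size, *Lhfpl1* had 212 and 291 counts in HZ and 43 and 52 in KO, *Pcdh1*, a protocadherin, 389 and 397 against 110 and 80, and *Sorl1*, a sorting receptor, 280 and 212 against 70 and 49. *Skap1*, an adaptor of lymphocyte signalling, had 416 and 318 in HZ and 108 and 91 in KO. The log2 difference was -1.71 for *Ggta1*, the galactosyltransferase of the α-gal epitope, -1.54 for *Sulf2*, a heparan sulfatase, and -1.51 for *Ass1*, argininosuccinate synthase. These genes had higher counts still in stimulated WT, for instance 1408 and 1327 for *Lhfpl1* and 1563 and 1496 for *Sorl1*. The DNA repair gene *Rad51c* (239 and 161 in HZ, 51 and 68 in KO), *Nanos1* and *Cfap20dc* had WT counts between or near those of HZ. *Entpd4b* had 29 and 208 counts in HZ and 15 and 22 in KO, a difference that rests on HZ replicate 2: without it log2 was -0.44 and not called, WT had 16 and 24 counts, and its reads may be shared with its near copy *Entpd4*.

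Of the 12 higher genes named by size, *Tns1*, a focal adhesion protein, had 970 and 841 counts in HZ and 2329 and 2377 in KO (log2 1.52 ± 0.07, adjusted p = 1.26e-22). *F13a1*, coagulation factor XIII A, had 754 and 777 in HZ and 1562 and 1720 in KO. *Sik1*, a salt-inducible kinase, had 135 and 119 against 386 and 384, and *Syn2*, synapsin 2, 113 and 127 against 338 and 365. *Slc6a12*, *Smarca1* and *Kalrn* had log2 differences of 1.46, 1.32 and 1.27. *Cd300ld5* had 8 and 3 counts in HZ and 99 and 191 in KO, and its reads may be shared with other genes of its cluster. In stimulated WT, *F13a1* had 18 and 21 counts and *Tns1* 164 and 129, below HZ in both cases.

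**Figure D5:**
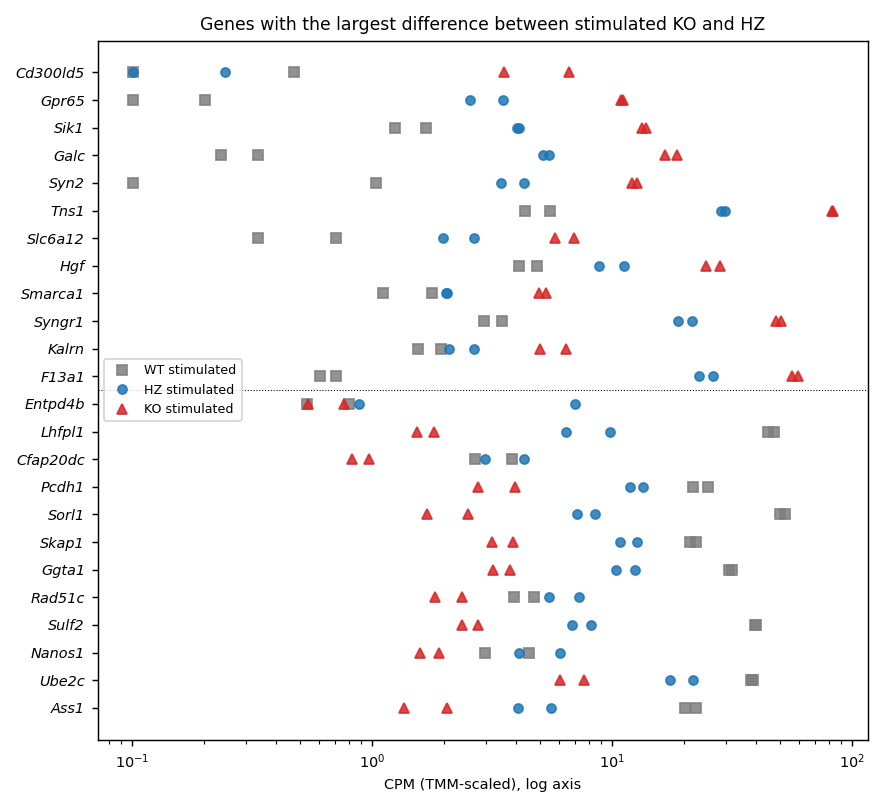
TMM-scaled CPM (log axis) in the 6 stimulated libraries for the 12 higher (above the dotted line) and 12 lower genes with the largest difference, with WT as squares, HZ as circles and KO as triangles. By the rule that chose the genes, KO and HZ symbols do not overlap in any row, and WT lies on the far side of HZ in most rows.

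Stimulated WT was placed by its mean CPM for all called genes. Of the 428 lower genes, WT lay above HZ in 230 (53.7%), between HZ and KO in 191 (44.6%) and below KO in 7 (1.64%). Of the 221 higher genes, WT lay below HZ in 121 (54.8%), between in 79 (35.7%) and above KO in 21 (9.5%). Over all genes with a negative difference, WT was above HZ in 38.9% and below KO in 35.3%, and over those with a positive one it was below HZ in 46.6% and above KO in 28.2%. KO against WT and HZ against WT share the WT libraries, so each is given only as its own place.

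Antigen induced 453 genes at least 2-fold in WT (3.71% of those tested). Of these, 26 (5.74%) were higher in KO than in HZ and 9 (1.99%) lower, beside 1.81% and 3.51% of all genes, with a median log2 difference of 0.10. Their median log2 response was 1.97 in HZ, 2.1 in KO and 2.13 in WT.

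Stress and metabolic lists followed. Of 24 genes of the integrated stress response 4 were lower and 0 higher in KO (16.7%), with a median of -0.25. *Phgdh* and *Psat1*, which start serine synthesis, had 1865 and 1633 counts in HZ against 644 and 716 in KO, and 5345 and 4897 against 2917 and 2810. The log2 difference was -1.20 for *Aldh1l2*, of mitochondrial folate metabolism, and -1.03 for *Chac1*, which degrades glutathione. The list's central factors *Atf4* (log2 -0.11) and *Ddit3* (0.44) were not called. Heat shock genes had 0 of 15 called with antigen and 7 higher in KO without it, where 4.83% of all genes were higher. Cholesterol genes had 0 of 26, antigen presentation genes 0 of 20, the BCL2 family 0 of 17, the TNF superfamily 0 of 16 and calcium and NFAT genes 0 of 18. Over all genes 5.32% were called with antigen, so lists of this size hold few calls at that share. At an adjusted p below 0.05 without the fold threshold, 12 cholesterol genes were higher and 1 lower in KO. Over all genes these shares were 12.9% and 12%.

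Interferon-stimulated genes had 2 lower and 1 higher of 33. *Ifit2* had 108 and 147 counts in HZ and 52 and 38 in KO, and *Rsad2*, viperin, 66 and 57 against 23 and 25. *Slfn5* was higher at 12 and 24 against 31 and 56 counts and lost its call without KO replicate 2 (log2 0.93) or HZ replicate 1 (0.91), and *Rsad2* lost it without KO replicate 1 (-1.18). Among lineage factors *Hes1*, a Notch target, was higher by 0.66 on the log2 scale and *Tfeb*, a lysosomal regulator, was lower at log2 -1.03, with 77 and 65 counts in HZ and 24 and 39 in KO. Leaving out 1 of 2 libraries ended the call of *Hes1* (KO replicate 1 or HZ replicate 1) and 1 of 3 that of *Tfeb* (all but KO replicate 2). *Mitf*, the master factor of mast cells, stood at log2 0.07. Of 21 redox and iron genes *Gstm5*, a glutathione transferase, alone was called, lower at log2 -0.61, and leaving out any of the 4 libraries ended that call.

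Among the called genes with the highest FPKM, besides *Nr4a2*, *Calca* and others given above, were *Ndrg1*, a hypoxia- and stress-responsive gene, with 17769 and 16357 counts in HZ and 24976 and 25938 in KO (log2 0.72 ± 0.03), and *Txnip*, the thioredoxin-interacting protein, with 6139 and 5518 against 10020 and 10320 (log2 0.94 ± 0.03). On the lower side, *Stmn1*, the microtubule-destabilising protein stathmin, had 6013 and 5260 counts in HZ and 2504 and 2670 in KO. *Lars2*, a mitochondrial leucyl-tRNA synthetase, had 19706 and 20558 in HZ and 8484 and 8299 in KO, with WT at 8650 and 8524.

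Most genes called with antigen were not called without it. Of the 428 lower genes 74 (17.3%) were also lower in KO without antigen, 78 (18.2%) were higher and 276 (64.5%) were not called. Of the 221 higher genes 30 (13.6%) were higher without antigen, 27 (12.2%) lower and 164 (74.2%) not called. Over all genes tested, 4.77% were lower and 4.83% higher in KO without antigen, so both groups were above these shares in both directions. The interaction test called 299 of the 428 (69.9%) as a smaller log2 response in KO, beside 8.26% of all genes. It called 126 of the 221 (57.0%) as a larger one, beside 6.8%. It uses the stimulated libraries too, so it is not separate evidence for these genes. More genes passed the test of antigen in HZ than in the other genotypes: 1766 genes were higher and 1698 lower with antigen in HZ, against 697 and 757 in KO and 698 and 843 in WT, all at the same thresholds.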

How the data were processed

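The series holds 12 libraries. The authors deposited raw read counts per gene. They also deposited FPKM values, which divide those counts by gene length and by the library's total. Per the labels, the submitters' processing notes name fastp, HISAT2 and HTSeq, without versions, and the build GRCm39. The strand setting is not given in the sources used here, so genes that overlap on opposite strands cannot be told apart. Libraries were grouped by their labels.

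Counts were tested in R 4.3.3 with edgeR 4.0.16. Of 16234 genes 12208 passed filterByExpr. TMM scaling was used, a mean was fitted for each of 6 groups, and the quasi-likelihood test was run with a prior count of 0.125 and Benjamini-Hochberg adjustment. A call needed an adjusted p under 0.05 and a ratio of 1.5 or more, or 0.66 or less. Simulation of the comparison recovered 185 of 200 genes changed by log2 1 and 197 of 200 changed by 1.5. The median log2 difference over all genes was -0.0022 with antigen.

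The genes and lists were chosen with earlier results of these data known. Named genes were first the 12 called genes with the largest fold in each direction. For that rule the libraries of the groups did not overlap and the higher group's mean was 100 counts or more. Added were the 5 called in each direction with the highest FPKM, and those the study measured or listed primers for. The 5 largest called of each list and the 8 largest in each direction of the difference in response were named too. *Mcm2* is outside the S phase list. *Atf4* and *Ddit3* were named after their values were seen. Sex-linked and mitochondrial genes were not analysed here, and 2 genes that the rule names are not reported here.

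The replicate numbers of HZ and KO libraries did not pair them: over 9858 genes, the differences between replicates 1 and 2 correlated at 0.0145. Replicates of a group differed by more than counting noise (chi-square per degree of freedom of 2.94 to 5.16). Alternatives were DESeq2 1.42.0 and its size factors, library totals, other filters and thresholds, a replicate block, leaving out each library, and limma 3.58.1 on log2(FPKM + 1) or log2(FPKM + 0.1). Counts of cell cycle genes under them were added after the data were seen.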

Additional observations from a re-analysis of the deposited data

Results flagged for a closer look

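The response to antigen differed between KO and HZ in 830 genes with a larger log2 response in KO and 1008 with a smaller one, by edgeR's interaction test. Groups of 2 libraries allow no test for a deviating library. Each value is the KO response minus the HZ response on the log2 scale, for genes far out in each direction.

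*Cd300ld5* was at 5.2, *Fzd9* at 4.86, *Ramp3* at 4.72, *Fbxo32* at 3.17, *Gbp9* at 3.12, *Greb1* at 2.93 and *Gpx3* at 2.72. *Gbp9* had 891 and 889 counts in unstimulated HZ and 207 and 176 in KO, and 124 and 105 against 173 and 187 with antigen. *Fzd9* rests on 0 counts in both unstimulated KO libraries and *Ramp3* on 0 and 1, so their sizes depend on the prior count and are no bounds.

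*Ccn1* was at -4.13, *Atf3* at -3.72, *Usp17ld* at -3.41, *Srp54b* at -3.32, *Egr4* at -3.22, *Fosl1* at -2.92, *Olr1* at -2.87 and *Rad51c* at -2.73. *Ccn1* had 0 counts in both unstimulated HZ libraries and *Olr1* 1 and 0, so these too are no bounds. *Srp54b* varied within groups, at 995 and 234 counts in unstimulated KO, and shares sequence with its near copies. *Fosl1* had 17 and 16 counts in unstimulated HZ and 105 and 115 in KO, and 527 and 490 against 371 and 377 with antigen.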

How the results depend on the processing

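The counts kept within 1.5 times the main value under DESeq2 (200 higher and 408 lower in stimulated KO), its size factors, library totals, both filters, a fit of only the groups compared, prior count 2 and an adjusted p below 0.01. With a replicate block, 219 were higher and 429 lower, and since the numbers did not pair the libraries this is given only here. The block within genotype gave 824 larger and 1006 smaller responses. Leaving out 1 library gave 176 to 195 higher and 387 to 403 lower genes, of which 140 to 150 and 340 to 360 were also called with all libraries. G2 and M phase genes then numbered 37 or 38 and S phase genes 22 to 26.

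Without the fold threshold, 1571 were higher and 1469 lower in stimulated KO, 2854 and 2661 in unstimulated KO, 2465 responses were larger and 2602 smaller, and 39 S phase genes were lower. At 2-fold these were 89 and 167, 158 and 252, and 284 and 452, with 2 S phase and 21 G2 and M phase genes lower. limma on log2(FPKM + 1) called 61 higher and 209 lower in stimulated KO, 370 and 220 in unstimulated KO, and 401 larger responses, and without a filter 59 and 207, 369 and 228, and 394. limma on log2(FPKM + 0.1) called 126 higher in stimulated and 371 lower in unstimulated KO. In the limma fits 21 to 27 S phase and 37 or 38 G2 and M phase genes were lower. With induction in WT called without a fold threshold, 39 induced genes were lower in KO where 9 had been, and 39 higher where 26 had been. Higher genes then no longer outnumbered lower ones, beside 221 higher and 428 lower over all genes.

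Of 1648 values of 112 named genes, 1533 kept direction and call, 102 lost the call and 13 changed sign, all of genes not called. The log2 difference of *Il6* was -0.0265 under library totals and -0.0266 in all 3 limma fits, and that of *Il13* 0.00215 under DESeq2 and 0.00191 with its size factors. Leaving out a library gave -0.0155 to 0.0198 for *Il6*, -0.0567 to 0.0444 for *Il13*, -0.0987 to 0.0458 for *Elk1* and -0.35 to 1.03 for *Srp54b*. The cause was not tested. Precision is limited by 2 libraries a group and, for genes of few counts, by depth.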
